A study of Mus musculus with 9 samples.

Results

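A set of 10 genes that store, import, export or reduce iron, or bind an iron carrier, was followed across bone marrow-derived dendritic cells (BMDCs) exposed to exosomes. They are Fth1 and Ftl1 (ferritin chains), Tfrc, Slc11a1 and Slc11a2 (import), Slc40a1 and Cp (export), Steap3 and Steap4 (reductases) and Lcn2 (siderophore binding). They were taken by gene name from the table of reads per gene, where all 10 were found among 57238 entries. BMDCs were grown from bone marrow of wildtype C57BL/6 mice in GM-CSF (20 ng/ml). Culture lasted 6 days according to the sample labels. The CTR group was left without exosomes. The NE group was given exosomes of the NIH 3T3 line, mouse fibroblasts that are not cancerous, and the TDE group exosomes of tumor cells, in both cases for 24 h. Each group had 3 libraries, of between 17469782 and 21092943 estimated reads. The labels do not name the tumor line or tie libraries to separate cultures or animals, so p-values measure the spread between these libraries, which may be technical.

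Cells take up most of their iron as transferrin bound to the transferrin receptor, reduce it inside endosomes with a metalloreductase and pass it to the cytosol through divalent metal transporters. Iron that is not used is stored inside ferritin, a shell of heavy (Fth1) and light (Ftl1) chains. Iron leaves the cell mainly through ferroportin (Slc40a1), helped by a ferroxidase such as ceruloplasmin (Cp). Macrophages and related phagocytes are known for recycling iron and for withholding it from microbes, to which Slc11a1 and Lcn2 contribute.

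Several of these messages share an RNA hairpin, the iron-responsive element, which iron regulatory proteins bind when iron is scarce. In a 5′ untranslated region (UTR) the bound protein blocks translation, and in a 3′ UTR it protects the message from decay. The hairpins are shown because they are the sequence that links members of opposite function. The pattern searched was a bulged C, 5 paired bases, the loop CAGTGN and the 5 pairing bases. At least 3 of 5 pairs below the bulge were also required. The search covered the sense strand of UTRs in complete coding transcripts of the basic annotation (GENCODE vM21, GRCm38). The pattern was present in 4 of the 10 members, and in 11 of 21767 genes searched (0.0505%). The loop is in capitals in each 27-base window.
Fth1 5′ UTR: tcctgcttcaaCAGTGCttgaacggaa
Ftl1 5′ UTR: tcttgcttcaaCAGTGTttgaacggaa
Slc40a1 5′ UTR: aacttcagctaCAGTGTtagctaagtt
Tfrc 3′ UTR window 1: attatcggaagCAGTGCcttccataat
Tfrc 3′ UTR window 2: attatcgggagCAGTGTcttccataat
Tfrc 3′ UTR window 3: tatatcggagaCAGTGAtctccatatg
Tfrc 3′ UTR window 4: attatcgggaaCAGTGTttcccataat

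The Fth1 window lies at chr19:9982733-9982759 on the plus strand, the Ftl1 window at chr7:45459780-45459806 on the minus strand and the Slc40a1 window at chr1:45925466-45925492 on the minus strand. The 4 Tfrc windows start at 32631220, 32631599, 32631664 and 32631711 on the plus strand of chromosome 16. In Slc11a2, Slc11a1, Cp, Steap3, Steap4 and Lcn2 the pattern was not found. This says only that these letters and pairs are not in the UTRs searched, and a hairpin of another form would be missed. A match is a description of the sequence, and no binding was measured here.

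One library stood apart from the rest before any comparison. CTR replicate 1 correlated with the other CTR libraries at a mean r of 0.87, whereas no pair of the other 8 libraries was below 0.941. Short genes were high and long genes low in it. Genes under 1000 bases were a median of 1.497 higher on the log2 scale than in the other CTR libraries, and genes over 4000 bases a median of 0.78 lower (-0.78). Members under 1000 bases were also higher in it and the longest ones lower, but the order by length did not hold throughout. Fth1 (929 bases), Ftl1 (968 bases) and Lcn2 (908 bases) were 4.35-fold, 3.29-fold and 2.43-fold higher in this library than in the mean of the other CTR libraries, while Tfrc (4890 bases) was at 0.386 of that mean. Steap4 (3155 bases) was lower still, at 0.0744 of that mean, on 2 reads in this library. What set this library apart was not tested. For the 10 genes and for the gene lists, values are given with all 9 libraries and without it. NE replicate 3 showed a smaller trend of the same kind, with a median of 0.41 for genes under 1000 bases.

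**Figure D1:**
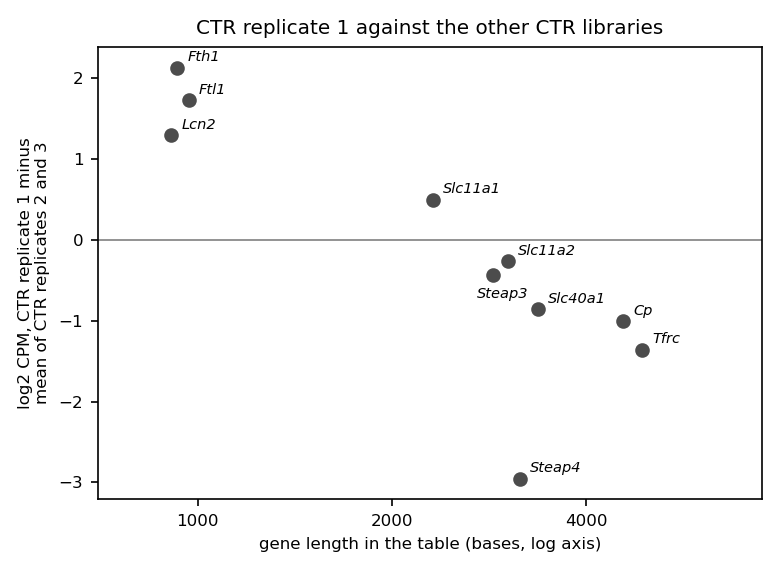
Log2 difference between CTR replicate 1 and the mean of CTR replicates 2 and 3 for each of the 10 genes, against gene length in bases on a log axis. The 3 genes under 1000 bases lie above 0 and Tfrc and Cp, the longest, lie below -1, with Steap4 lowest at -2.95 on 2 reads in that library.

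TDE-treated BMDCs differed from CTR BMDCs in 5 of the 10 genes, with Cp, Slc11a2 and Slc11a1 higher and Slc40a1 and Steap3 lower (edgeR quasi-likelihood test, adjusted p under 0.05). Over all 15028 tested genes, 16.9% passed, 7.57% higher and 9.34% lower. Without CTR replicate 1, Fth1, Lcn2 and Tfrc also passed, which made 8 of 10 (6 higher and 2 lower), against 34.4% of all genes (16.4% higher and 18% lower). Against NE-treated BMDCs, 6 of 10 genes differed, the same 5 and Lcn2, where 13.9% of all genes passed, 6.73% higher and 7.21% lower. Without CTR replicate 1 this became 7 of 10, with Fth1 added, against 40.7% of all genes (19.2% higher and 21.5% lower). The median log2 fold change of the 10 members was 0.67 against CTR and 0.73 against NE, beside -0.05 and -0.02 for all tested genes. The members were chosen with earlier results of these data known, so their counts and medians beside all genes are descriptive only. Both comparisons use the same TDE libraries. NE-treated and CTR BMDCs did not differ in any of the 10 genes, nor in any other gene at this threshold (0%), and without CTR replicate 1 0.0196% of all genes passed, all lower and no member among them.

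**Figure D2:**
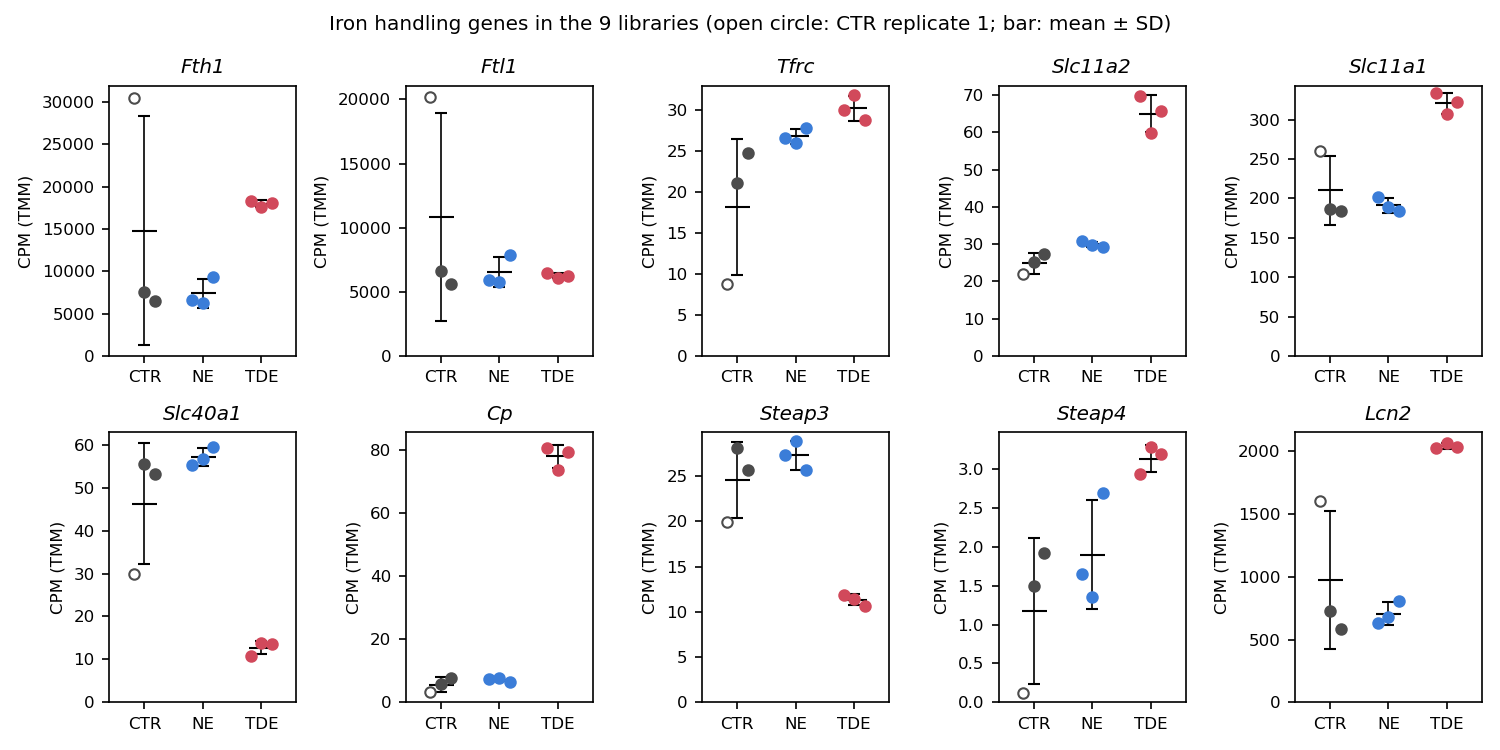
Normalized counts (CPM, scaled by TMM factors) of the 10 genes in the 3 CTR, 3 NE and 3 TDE libraries, each panel with its own axis from 0, points for libraries, horizontal marks for means and bars for SD. The open circle is CTR replicate 1, which is the highest CTR point for Fth1, Ftl1, Slc11a1 and Lcn2, and the TDE points lie far above for Cp (73.9 to 80.9) and far below for Slc40a1 (10.9 to 13.8).

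Fth1, the ferritin heavy chain, which oxidizes iron as it enters the shell, separated TDE-treated from NE-treated BMDCs in every library. Levels of one gene are given as CPM, the usual depth-scaled read count, after scaling by TMM factors. Fth1 was at 18363, 17619 and 18048 CPM in the TDE libraries, at 6588, 6289 and 9374 CPM in the NE libraries, and at 30437, 7545 and 6441 CPM in the CTR libraries. The TDE libraries lay above all NE libraries and above CTR replicates 2 and 3, but below CTR replicate 1. With all 9 libraries the log2 fold change was 0.28 ± 0.54 (SE) against CTR (adjusted p = 0.72, edgeR), with a 95% interval from -0.96 to 1.52. Without CTR replicate 1 it was 1.36 ± 0.17 (2.56-fold, adjusted p = 0.00035, edgeR). Against NE it was 1.28 ± 0.55 (adjusted p = 0.183, edgeR), and without CTR replicate 1, which is in neither of these groups but shares the fit, 1.27 ± 0.15 (adjusted p = 0.000162, edgeR). Without CTR replicate 2 or 3 the log2 fold change against CTR was -0.02 or -0.07.

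Ftl1, the ferritin light chain, which helps the iron core form, stayed within the spread of the other groups. Ftl1 was at 6478, 6056 and 6217 CPM in the TDE libraries, at 5955, 5754 and 7864 CPM in the NE libraries and at 20175, 6640 and 5632 CPM in the CTR libraries. The TDE libraries overlapped with both other groups. The log2 fold change against CTR was -0.79 ± 0.45 with all libraries (adjusted p = 0.237, edgeR) and 0.02 ± 0.14 without CTR replicate 1 (adjusted p = 0.938, edgeR). Against NE it was -0.06 ± 0.44 (adjusted p = 0.966, edgeR), with a 95% interval from -1.08 to 0.96, and -0.07 ± 0.12 without CTR replicate 1 (adjusted p = 0.683, edgeR).

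The ratio of heavy to light chain, taken within each library per kilobase of gene length, does not depend on the scaling of the libraries. The Fth1 to Ftl1 ratio was 2.95, 3.03 and 3.02 in the TDE libraries, 1.15, 1.14 and 1.24 in the NE libraries and 1.57, 1.18 and 1.19 in the CTR libraries. All TDE libraries were above all others, CTR replicate 1 included, although that library was the highest of the other 6. The means were 3.003 ± 0.0431 (SD, n = 3) for TDE, 1.18 ± 0.0561 for NE and 1.32 ± 0.222 for CTR. The level of the ratio rests on the lengths used. With the union of all annotated exons (3469 bases for Fth1 and 1340 for Ftl1) in place of the table's lengths, the means were 1.11, 0.437 and 0.488, with the same order of groups. Reads of both chains together made up 2.40% to 2.48% of each TDE library, 1.27% to 1.77% of each NE library, and 3.79%, 1.499% and 1.295% of the CTR libraries.

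**Figure D3:**
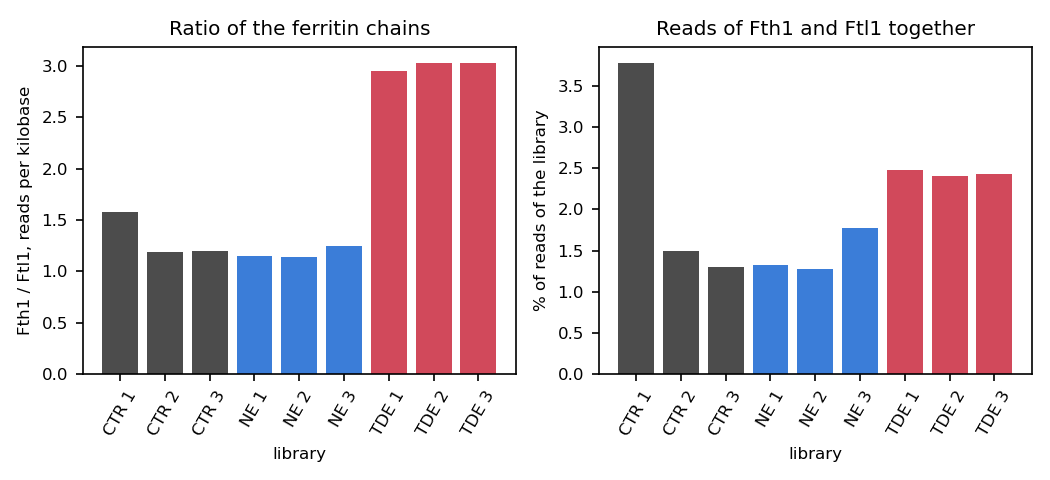
Left, the ratio of Fth1 to Ftl1 in reads per kilobase in each of the 9 libraries, and right, the percentage of a library's reads that both genes took together, with bars from 0. The TDE libraries are at 2.95 to 3.03 in the left panel and every other library is at or below 1.57, whereas in the right panel CTR replicate 1 is the highest at 3.79%.

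Near copies took few of the ferritin reads in this table. Of 11 other entries whose names start with Fth, only Fth-ps2 had reads, at most 12 in a library, and of 3 other entries starting with Ftl, Ftl1-ps1 had the most, with 1966 reads in CTR replicate 1 and between 103 and 282 elsewhere. Together the copies came to at most 0.621% of the Ftl1 reads. How reads that fit several copies were divided is not given in the sources used here, so small differences between copies are uncertain. Ftl1 also overlaps the exons of Gm10252 on the opposite strand, which had between 62 and 143 reads per library.

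Among the importers, Slc11a2 showed the clearest rise. Slc11a2 encodes the divalent metal transporter DMT1, which carries iron out of endosomes. It was at 69.7, 59.7 and 65.8 CPM in the TDE libraries, at 30.8, 29.7 and 29.3 CPM in the NE libraries and at 21.9, 25.3 and 27.4 CPM in the CTR libraries. Every TDE library was above every other library. Slc11a2 was 2.61-fold higher than in CTR (log2 fold change 1.39 ± 0.13, adjusted p = 0.000476, edgeR) and 2.17-fold higher than in NE-treated BMDCs (1.12 ± 0.13, adjusted p = 0.00109, edgeR). In the fit without CTR replicate 1, the values were 1.29 ± 0.0921 and 1.11 ± 0.0799. The exons of Gm5475 overlap Slc11a2 on the opposite strand, and Gm5475 had at most 5 reads in a library.

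Slc11a1, known as NRAMP1, removes metal ions from the phagosomes of macrophages and related cells. It was at 334, 308 and 322 CPM in the TDE libraries, at 202, 189 and 184 CPM in the NE libraries and at 261, 186 and 184 CPM in the CTR libraries. The TDE libraries did not overlap with either group. It rose by a log2 fold change of 0.61 ± 0.16 against CTR (adjusted p = 0.0366, edgeR) and 0.75 ± 0.16 against NE (adjusted p = 0.0183, edgeR). Against CTR the call was lost on leaving out any 1 of the other 8 libraries (adjusted p from 0.0572 to 0.125, edgeR) but not on leaving out CTR replicate 1 (0.79 ± 0.0746, adjusted p = 7.23e-05). Against NE it was lost for any of the NE or TDE libraries (highest adjusted p = 0.0783, edgeR), and it held without CTR replicate 1 (0.74 ± 0.0656, adjusted p = 3.52e-05, edgeR).

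Tfrc, the transferrin receptor, had a small difference that depended on CTR replicate 1. Tfrc was at 29.9, 31.7 and 28.7 CPM in the TDE libraries, at 26.6, 25.9 and 27.7 CPM in the NE libraries and at 8.81, 20.997 and 24.7 CPM in the CTR libraries. The TDE libraries were above the NE libraries and these above the CTR libraries, without overlap. Against CTR the log2 fold change was 0.73 ± 0.32 (adjusted p = 0.143, edgeR) with all libraries and 0.39 ± 0.0957 (adjusted p = 0.0125, edgeR) without CTR replicate 1. Against NE it was 0.17 ± 0.32 (adjusted p = 0.831, edgeR), and without CTR replicate 1 0.17 ± 0.0847 (adjusted p = 0.154, edgeR).

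The export genes moved in opposite directions. Slc40a1, ferroportin, the main known iron exporter of mammalian cells, fell in TDE-treated BMDCs. Slc40a1 was at 10.9, 13.8 and 13.5 CPM in the TDE libraries, at 55.3, 56.8 and 59.4 CPM in the NE libraries and at 30.0, 55.5 and 53.2 CPM in the CTR libraries. Every TDE library was below every other library, CTR replicate 1 included. It was 3.63-fold lower than in CTR (log2 fold change -1.86 ± 0.24, adjusted p = 0.00179, edgeR) and 4.48-fold lower than in NE-treated BMDCs (-2.16 ± 0.24, adjusted p = 0.000904, edgeR). With CTR replicate 1 left out, it was 4.29-fold lower than in CTR (-2.10 ± 0.106), and the value against NE was -2.17 ± 0.0995.

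Cp, ceruloplasmin, a copper enzyme that oxidizes iron as it leaves the cell, had the highest fold change of the 10 genes in both comparisons. Cp was at 80.9, 73.9 and 79.5 CPM in the TDE libraries, at 7.54, 7.65 and 6.61 CPM in the NE libraries and at 3.30, 5.73 and 7.87 CPM in the CTR libraries. The lowest TDE library was far above the highest of the other 6. Cp was 13.8-fold higher than in CTR (log2 fold change 3.79 ± 0.29, adjusted p = 0.000204, edgeR) and 10.7-fold higher than in NE-treated BMDCs (3.43 ± 0.29, adjusted p = 0.00023, edgeR). With that CTR library left out, it was 11.4-fold higher than in CTR (3.51 ± 0.143), and the value against NE was 3.42 ± 0.121. Cp shares 108 exon bases with Hps3 on the opposite strand. Hps3 had between 1181 and 1233 reads in the TDE libraries and between 1537 and 1786 in the NE libraries and CTR replicates 2 and 3.

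**Figure D4:**
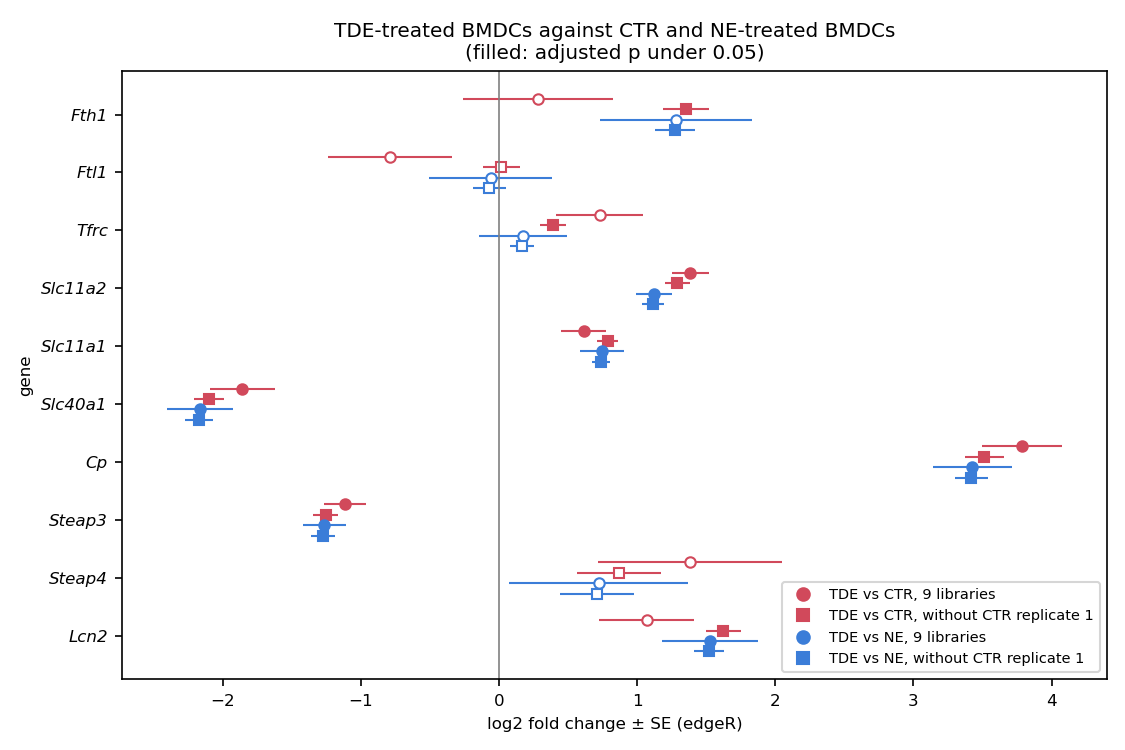
Log2 fold change ± SE (edgeR) of the 10 genes for TDE-treated against CTR (red) and NE-treated (blue) BMDCs, with all 9 libraries (circles) and without CTR replicate 1 (squares), filled where the adjusted p was under 0.05. Cp lies at 3.42 to 3.79 and Slc40a1 at -2.17 to -1.86 in all 4 fits, while Fth1 against CTR moves from 0.28 to 1.36.

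The metalloreductases reduce ferric iron to the form that transporters carry. Steap3, the ferrireductase of the transferrin endosome, fell in TDE-treated BMDCs. Steap3 was at 11.9, 11.4 and 10.7 CPM in the TDE libraries, at 27.3, 28.9 and 25.7 CPM in the NE libraries and at 19.9, 28.1 and 25.7 CPM in the CTR libraries. Every TDE library was below every other library. It was 2.17-fold lower than in CTR (log2 fold change -1.12 ± 0.15, adjusted p = 0.00267, edgeR) and 2.41-fold lower than in NE-treated BMDCs (-1.27 ± 0.15, adjusted p = 0.00137, edgeR). Once CTR replicate 1 was removed, the log2 fold change was -1.26 ± 0.0925 against CTR and -1.27 ± 0.0852 against NE.

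Steap4, a related reductase of the plasma membrane, was rare in all libraries, with between 2 and 61 reads. Steap4 was at 2.94, 3.28 and 3.19 CPM in the TDE libraries, at 1.65, 1.36 and 2.69 CPM in the NE libraries and at 0.127, 1.49 and 1.92 CPM in the CTR libraries. The TDE libraries were above all others, but neither comparison passed the threshold. The log2 fold change was 1.38 ± 0.67 against CTR (adjusted p = 0.175, edgeR) and 0.72 ± 0.65 against NE (adjusted p = 0.578, edgeR). In the fit without CTR replicate 1, it was 0.87 ± 0.304 against CTR (adjusted p = 0.0536, edgeR) and 0.71 ± 0.267 against NE (adjusted p = 0.0612, edgeR).

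Lcn2, lipocalin 2, a secreted protein that binds bacterial siderophores and so withholds iron from microbes, was higher in TDE-treated than in NE-treated BMDCs. Lcn2 was at 2028, 2066 and 2030 CPM in the TDE libraries, at 632, 682 and 808 CPM in the NE libraries and at 1602, 730 and 587 CPM in the CTR libraries. Every TDE library was above every other library. Lcn2 was 2.89-fold higher than in NE (log2 fold change 1.53 ± 0.35, adjusted p = 0.0219, edgeR), a call that was lost on leaving out any 1 of the NE or TDE libraries (highest adjusted p = 0.0921, edgeR) and held without CTR replicate 1 (1.52 ± 0.11, adjusted p = 1.03e-05, edgeR). Against CTR it was 1.07 ± 0.34 (adjusted p = 0.0687, edgeR) with all libraries and 1.62 ± 0.13 (3.08-fold, adjusted p = 2.49e-05, edgeR) without CTR replicate 1.

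Lcn2 is also a granule protein of neutrophils, so neutrophil markers were read beside it. In TDE-treated BMDCs 8 of 12 neutrophil markers were lower than in CTR and 6 of 12 lower than in NE, beside 9.34% and 7.21% of all genes, and none was higher. In the fit without CTR replicate 1 there were 10 lower and 1 higher (Csf3r, named after its values were seen) in both comparisons, beside 18% and 21.5% of all genes lower. Their summed level was 3685 to 3982 CPM in the TDE libraries, 8080 to 11381 CPM in the NE libraries and 7673 to 29323 CPM in the CTR libraries, and no marker was absent. Against NE, Lcn2 was thus higher while the neutrophil markers that passed, apart from Csf3r without CTR replicate 1, were lower, and the part of a changed cell makeup in its level was not tested. In bulk RNA, fewer cells of a type and less RNA per cell cannot be told apart.

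Markers of the other cell types were read for all members in the same way. Of 10 dendritic cell markers 9 were above 3 reads in at least 1 library, with Cd209a at 3 reads or fewer in all. Their summed level was 2080 to 2219 CPM in the TDE libraries, 3797 to 4833 CPM in the NE libraries and 3952 to 13112 CPM in the CTR libraries, with 5 of 9 tested markers lower in TDE than in CTR and 2 lower than in NE (9.34% and 7.21% of all genes). With CTR replicate 1 left out, 8 of the 9 were lower in both comparisons (18% and 21.5% of all genes). Among the macrophage markers, Adgre1 (F4/80) rose against CTR and against NE and C1qb fell against CTR, and the list summed to 5833 to 6241 CPM in TDE, 4492 to 4890 CPM in NE and 4643 to 5311 CPM in CTR libraries. Of the 10 macrophage markers, 1 was higher and 2 were lower against CTR and 1 was higher and 1 lower against NE, and without CTR replicate 1 there were 2 higher and 6 lower in both. Erythroid markers, read because red cell precursors carry much Tfrc, summed to at most 11.9 CPM in any library, with Slc4a1 among those at 3 reads or fewer in all. The 8 fibroblast markers summed to 10.8 to 11.8 CPM in the TDE libraries, 6.29 to 7.71 CPM in the NE libraries and 6.46 to 7.61 CPM in the CTR libraries, with Dcn higher in both comparisons and Pdgfrb higher against CTR. The 5 epithelial markers summed to 4.37 to 7.05 CPM in TDE, 10.9 to 12.7 CPM in NE and 8.22 to 8.90 CPM in CTR libraries, with Cdh1 lower in both comparisons. Of the 6 proliferation markers, which summed to 381 to 401 CPM in TDE, 379 to 403 CPM in NE and 279 to 350 CPM in CTR libraries, Pcna and Mcm5 fell in both comparisons and Mki67 rose against CTR. With CTR replicate 1 left out, the fibroblast list had 2 higher and 1 lower against CTR and 2 higher against NE, the epithelial list 1 lower in each, and the proliferation list 3 higher and 2 lower against CTR and 2 higher and 2 lower against NE. For the macrophage, fibroblast, epithelial and proliferation counts, the shares of all genes were 7.57% higher and 9.34% lower against CTR. Against NE these shares were 6.73% and 7.21%. With CTR replicate 1 left out, they were 16.4% and 18% against CTR, and 19.2% and 21.5% against NE. The part of the marker lists in the members' differences was not tested.

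The exosomes of NIH 3T3 cells left no difference from CTR that passed the threshold in the 10 genes. With all libraries the adjusted p was 0.659 to 0.681 (edgeR), and the log2 fold changes ran from -0.997 for Fth1 to 0.66 for Steap4. With CTR replicate 1 left out, they ran from 0.02 for Steap3 to 0.23 for Tfrc. The libraries did not overlap for Tfrc and Slc11a2, both higher in NE, where 7.71% of all genes did not overlap. Over all genes, 487 had an unadjusted p under 0.05, while 6 genes passed by DESeq2 and 18 by limma voom with sample weights, none of them a member. Against CTR, TDE libraries did not overlap for 8 of the 10 genes (44% of all genes), and against NE for 9 of 10 (54.5% of all genes).

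Levels of different genes were compared as RPKM (depth-scaled reads per kilobase, from TMM-scaled reads and the table's gene lengths). In NE-treated BMDCs the order was Fth1 (7984 ± 1831 RPKM, SD, n = 3), Ftl1 (6740 ± 1203), Lcn2 (779 ± 99.6), Slc11a1 (82.7 ± 4.04), Slc40a1 (16.96 ± 0.619), Slc11a2 (9.89 ± 0.255), Steap3 (9.50 ± 0.564), Tfrc (5.46 ± 0.189), Cp (1.59 ± 0.124) and Steap4 (0.601 ± 0.222). Between libraries the spreads of Fth1 and Ftl1 overlapped, as did those of Slc11a2 and Steap3. Within each NE library Fth1 was above Ftl1 per kilobase, at ratios of 1.15, 1.14 and 1.24 with the table's lengths. The order in CTR BMDCs without replicate 1 was the same apart from Steap3 (9.37 RPKM) and Slc11a2 (8.72 RPKM), which changed places. In TDE-treated BMDCs the first 4 genes kept their places, Cp came to rank 6 at 17.1 ± 0.809 RPKM and Slc40a1 went from rank 5 to rank 9 at 3.78 ± 0.474 RPKM, next to Steap3 at 3.95 ± 0.211 RPKM, from which it did not differ beyond the spread. With exon union lengths Ftl1 was above Fth1 in NE-treated BMDCs (4869 against 2138 RPKM), but below it in TDE-treated BMDCs (4664 against 5192 RPKM).

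The other genes of iron and heme metabolism were read from a list of 70, of which 68 were in the table and 51 were tested. In TDE-treated against CTR BMDCs 7 rose, 2 fell and 42 did not pass, with a median log2 fold change of -0.13, beside -0.05 for all tested genes. The 9 of 51 that passed are near the 16.9% of all genes. Against NE 5 rose, 3 fell and 43 did not pass, with a median of 0.03, beside -0.02, and 8 of 51 is near the 13.9% of all genes. With that CTR library left out, 24 of 52 tested genes passed against CTR (14 higher, 10 lower) and 25 of 52 against NE (17 higher, 8 lower), beside 34.4% and 40.7% of all genes.

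Among the sensors, Fbxl5 and Tfr2 were the genes that rose in both comparisons. Fbxl5, the iron-sensing subunit of the ligase that marks iron regulatory protein 2 for decay, was at 529 to 559 CPM in the TDE libraries, 176 to 197 CPM in the NE libraries and 103 to 208 CPM in the CTR libraries. Its log2 fold change was 1.76 ± 0.24 against CTR (adjusted p = 0.00244, edgeR) and 1.55 ± 0.24 against NE (adjusted p = 0.00398, edgeR), and 1.51 and 1.54 without CTR replicate 1. Tfr2, transferrin receptor 2, named after its values were seen, was at most 3.10 CPM in any library, with log2 fold changes of 1.99 and 2.16 (2.39 and 2.15 without CTR replicate 1). Nfe2l2, the transcription factor NRF2, which drives ferritin and Hmox1 genes, fell against NE (-0.58 ± 0.16, adjusted p = 0.0451, edgeR) and stood at -0.41 ± 0.16 against CTR (adjusted p = 0.112, edgeR), where it fell without CTR replicate 1 (-0.56 ± 0.0781, adjusted p = 0.000663, edgeR).

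The iron regulatory proteins themselves were described whatever their values. Ireb2 (iron regulatory protein 2) had a log2 fold change of 0.53 ± 0.40 against CTR and 0.12 ± 0.40 against NE (adjusted p = 0.371 and 0.924, edgeR), and 0.12 and 0.11 without CTR replicate 1 (adjusted p = 0.394 and 0.388, edgeR). Aco1 (iron regulatory protein 1) stood at -0.34 ± 0.19 against CTR and -0.55 ± 0.19 against NE (adjusted p = 0.22 and 0.094, edgeR), and without CTR replicate 1 it fell by 0.54 and 0.56 on the log2 scale (adjusted p = 0.00118 and 0.000446, edgeR). Its libraries were at 58.4 to 63.4 CPM in TDE, 81.4 to 93.8 CPM in NE and 55.2 to 88.2 CPM in CTR, the lowest CTR value being replicate 1.

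In uptake, release and ferritin turnover, Slc39a14 (ZIP14, an importer of iron not bound to transferrin) rose against CTR by 1.17 ± 0.30 (adjusted p = 0.0313, edgeR) and was at 0.76 ± 0.29 against NE (adjusted p = 0.141, edgeR). In the fit without CTR replicate 1 it rose in both, by 0.87 and 0.75 (adjusted p = 0.00139 and 0.0012, edgeR). Mcoln1, a lysosomal cation channel, rose against NE by 0.38 ± 0.11 (adjusted p = 0.047, edgeR), and against CTR only without CTR replicate 1 (0.26 ± 0.11, adjusted p = 0.123 with it, and 0.29 ± 0.071, adjusted p = 0.0136 without it, edgeR). Ltf, lactoferrin, an iron-binding granule protein also on the neutrophil list, fell by 3.06 against CTR and by 2.83 against NE on the log2 scale (adjusted p = 0.0004 and 0.000481, edgeR), from 1451 to 2923 CPM in CTR to 234 to 265 CPM in TDE libraries, and the values without CTR replicate 1 were -2.72 and -2.84. Ncoa4, the receptor that carries ferritin to the lysosome, was at 204 to 214 CPM in TDE, 318 to 347 CPM in NE and 75.1 to 328 CPM in CTR libraries. The Ncoa4 difference did not pass with all libraries (adjusted p = 0.77 against CTR and 0.409 against NE, edgeR), and without CTR replicate 1, the lowest CTR library for this gene, it was -0.63 ± 0.0706 and -0.69 ± 0.0641 (adjusted p = 0.0002 and 4.55e-05, edgeR).

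Of 11 tested genes of heme uptake, export and breakdown, Hmox1 rose in both comparisons and Abcg2 against CTR. The counts in this and the next groups, 2 of 11, 1 of 8 and 2 of 17 against CTR, stand beside 16.9% of all genes, and 1 of 11, 0 of 8 and 2 of 17 against NE beside 13.9%. Hmox1, heme oxygenase 1, which frees iron from heme, was at 682 to 806 CPM in TDE, 218 to 268 CPM in NE and 168 to 246 CPM in CTR libraries. Its log2 fold change was 1.81 ± 0.18 against CTR (adjusted p = 0.00062, edgeR) and 1.66 ± 0.18 against NE (adjusted p = 0.000883, edgeR), and 1.66 and 1.65 without CTR replicate 1. Abcg2, a porphyrin exporter, was at 0.66 ± 0.17 against CTR (adjusted p = 0.0361, edgeR) and, without CTR replicate 1, rose in both comparisons (0.55 and 0.46, adjusted p = 0.0159 and 0.017, edgeR). Of 8 tested heme synthesis genes, Alas1, the first enzyme of the pathway, rose against CTR (0.51 ± 0.13, adjusted p = 0.0361, edgeR, named after its values were seen), and without CTR replicate 1 also against NE (0.42 ± 0.0749, adjusted p = 0.00222, edgeR). Of 17 genes of mitochondrial iron import and iron-sulfur clusters, Isca1, a cluster assembly factor, rose against CTR and NE by 0.66 and 0.65, and Abcb10, a mitochondrial transporter, fell by 0.63 and 0.70 on the log2 scale. With CTR replicate 1 left out, Isca1 rose by 0.60 and 0.65 and Abcb10 fell by 0.72 and 0.71.

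**Figure D5:**
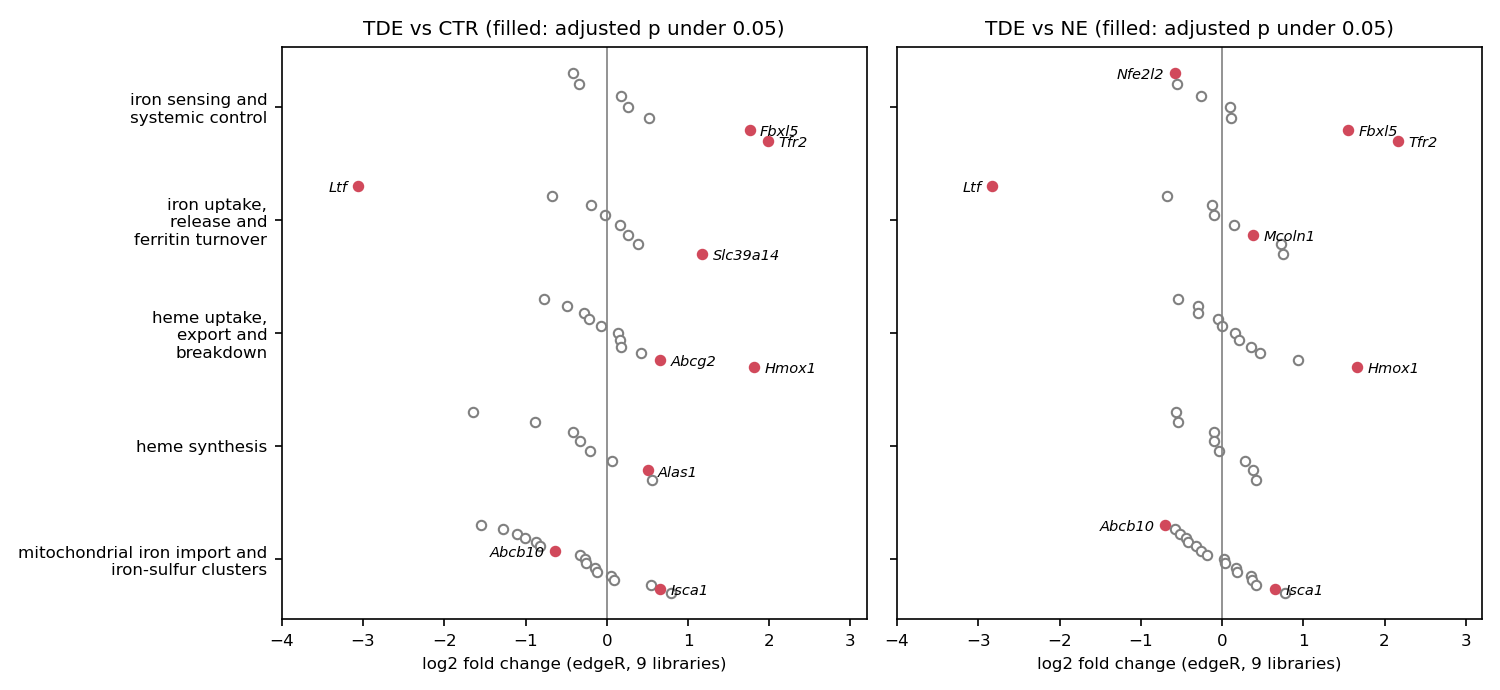
Log2 fold change (edgeR, 9 libraries) of the 51 tested genes of the wider iron list in TDE-treated against CTR (left) and NE-treated (right) BMDCs, grouped by role, filled and named where the adjusted p was under 0.05. Most genes lie near 0, with Hmox1, Fbxl5 and Tfr2 far to the right and Ltf at -3.06 and -2.83.

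The genes most like each member were those with the smallest root mean square difference of centred log2 CPM over the 9 libraries, among 10453 genes of at least 5 CPM. For Slc40a1 they were Ctse (0.0951) and Sulf2 (0.132), for Slc11a2 6720489N17Rik (0.0843) and Dram1 (0.0898), for Slc11a1 Arap1 (0.0546) and Plbd2 (0.0617), and for Steap3 Vsig10 (0.0544) and Padi4 (0.0671). Fth1 was most like 1110008P14Rik (0.0983) and Gadd45g (0.132), Ftl1 most like Gabarap (0.0492) and Prcc (0.0522), Lcn2 most like Mrpl45 (0.0917) and Upp1 (0.103) and Tfrc most like Foxj3 (0.0733) and Tmod3 (0.0869). Over the 9 libraries Cp and Steap4 had no close match. The nearest were Slc7a2 (0.383) and Cd38 (0.384) for Cp, and Gm6377 (0.279) and Anln (0.284) for Steap4. Once CTR replicate 1 was removed, only Vsig10 for Steap3 remained among these names, and the nearest to Fth1 were then Mirt2 (0.0619) and Gadd45b (0.0839). Nearer matches than over the 9 libraries were then found for Cp (Siglece, 0.192) and for Steap4 (Gm3435, 0.120).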

How the data were processed

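RNA sequencing libraries of BMDCs (3 CTR, 3 NE, 3 TDE) were analysed from a single table with 1 row per gene. The authors deposited estimated counts (expected counts) without normalization, with a mean per group and a gene length. According to the paper's methods and the labels, RNA was extracted with TRIzol, sequenced on an Illumina instrument and aligned with TopHat2 2.1.1. The counting program, the genome build, the annotation and the strand setting are not given in the sources used here. The methods give 7 days of GM-CSF culture where the labels give 6.

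Counts were rounded, filtered with filterByExpr and scaled by TMM, and all 9 libraries entered a model of group means (edgeR 4.0.16, R 4.3.3). Groups were compared with the quasi-likelihood F test, two-sided, with Benjamini-Hochberg adjustment over all 15028 tested genes and a threshold of 0.05. Standard errors are the log2 fold change divided by the square root of F. Intervals are at 95%. With these depths 3 reads correspond to 0.142 to 0.172 CPM before TMM scaling.

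Members and gene lists were chosen with earlier results of these data known. All members are named, along with genes of the wider list that passed with a mean of at least 5 CPM (at most 5 in each direction), Hmox1, Ncoa4, Ireb2 and Aco1, and the 2 genes most like each member. Of 55536 Ensembl identifiers, 55450 were found in GENCODE vM21, all members among them. DESeq2 1.42.0 and limma 3.58.1 served as alternatives, with Python 3.11.15. The code was tested on simulated data. Results for some marker genes are not reported here.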

Additional observations from a re-analysis of the deposited data

How the results depend on the processing

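Slc11a2, Slc40a1, Cp and Steap3 kept their direction and their side of the threshold in all 20 alternatives, in TDE against CTR and against NE. Of 199 member values under alternatives in each comparison, 169 kept direction and call against CTR and 175 against NE. In the members, 9 of 10 passed against CTR using limma voom with sample weights. Length offsets, chosen after seeing the data, gave 7, and 9 without CTR replicate 1. Leaving out 1 library gave 4 to 8 members past the threshold against CTR (8 without CTR replicate 1) and 4 to 7 against NE. All other alternatives gave counts within 1.5 times the main ones, and none called a member in NE against CTR. Steap4 could not be tested with at least 10 reads in every library. In the wider list, with 9 past the threshold against CTR and 8 against NE, DESeq2 gave 17 and 12, limma voom 31 and 35, length offsets 14 and 13 (31 and 34 without CTR replicate 1), the 6 libraries compared 4 and 25, library totals alone 7 and 5, and a log2 fold change of at least 1 gave 5 and 4. Leaving out 1 library gave 4 to 24 against CTR and 4 to 25 against NE, the highest without CTR replicate 1 in both, and 15 against CTR without CTR replicate 3. Over all genes, 2541 passed against CTR and 2095 against NE, 4018 and 3021 with DESeq2, 7886 and 8311 with limma voom, 5263 and 6223 without CTR replicate 1, 3747 and 3173 with length offsets, 6557 and 7504 with both, 1740 and 1434 without a filter, 1152 and 6072 in the 6 libraries compared, and 1103 and 970 at the lowest with 1 library left out. The cause of these differences was not tested.

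Directions turned only in values that did not pass the threshold with all 9 libraries. Against CTR, the log2 fold change of Fth1 ran from -0.066 to 1.36 and that of Ftl1 from -1.09 to 0.017 with 1 library left out, and Ftl1 was 0.077 with length offsets and without CTR replicate 1. Against NE, Ftl1 ran from -0.14 to 0.10, and was 0.076 with limma voom and 0.012 with length offsets and without CTR replicate 1. In NE against CTR, with 1 library left out, Fth1 ran from -1.35 to 0.083, Ftl1 from -1.03 to 0.087, Slc11a1 from -0.22 to 0.049 and Lcn2 from -0.71 to 0.10. In the same comparison length offsets without CTR replicate 1 gave 0.056, 0.065, 0.054 and 0.089, length offsets gave 0.093 for Lcn2, and Slc11a1 was 0.031 with library totals alone and 0.062 with limma voom. The Fth1 to Ftl1 ratio with exon union lengths was 0.488 in CTR, 0.437 in NE and 1.11 in TDE, and with 1 library left out its mean ran from 1.19 to 1.38 in CTR, 1.15 to 1.20 in NE and 2.99 to 3.03 in TDE.

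The libraries carry replicate numbers but no stated pairing, and same-numbered libraries did not deviate together (correlations from -0.0562 to 0.0723 between TDE and CTR, from -0.0712 to 0.0267 between TDE and NE, and from -0.585 to 0.185 between NE and CTR). With the number as a replicate block, 4 members passed against CTR, where Slc11a1 was lost, and 5 against NE, where Lcn2 was lost, with 4 and 5 genes of the wider list and 1285 and 1175 of all genes. At these depths the members had from 2 reads (Steap4 in CTR replicate 1) to 480252 reads (Fth1), so the precision set by counting is lowest for Steap4.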
